A study of Mus musculus with 6 samples.

Results

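The genes described here are *Mbnl1* and 9 other RNA-binding proteins that choose alternative exons: *Mbnl2*, *Mbnl3*, *Celf1*, *Celf2*, *Rbfox2*, *Ptbp1*, *Ptbp2*, *Qk* and *Esrp1*. They are 10 of the 41388 genes in the count files, taken by gene symbol, and all 10 were among the 14533 genes with enough reads to test. *Mbnl1* was selected on its counts, which were lower in *Postn*-/- than in *wt* samples, so this difference is given as a description without a test. The other 9 are its paralogues and regulators of the same kind.

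The libraries were made from chondrocytes isolated out of the femoral head, whose cartilage is the gliding surface of the hip joint. The cells were taken from male mice of 21 days on a background labelled B6/129 (B6129SF2/J in the methods). The cells were cultured for 2 days before RNA extraction, with no treatment. Samples fell into 2 groups: 3 *Postn*-/- samples, from mice homozygous for the *Postn* tm1Jmol null allele in every tissue, and 3 *wt* samples. *Postn* encodes periostin, a secreted matrix protein. By the methods the *wt* mice were littermates from crosses of heterozygotes, and 3 mice of each genotype were used, as many as there are samples. The p-values measure the spread between these samples.

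Muscleblind-like proteins (*Mbnl1*, *Mbnl2* and *Mbnl3*) bind short YGCY elements in pre-mRNA through zinc fingers and promote adult patterns of exon use, often opposed by CELF proteins on the same exons. In myotonic dystrophy they are trapped on expanded CUG repeats. In mice lacking *Mbnl1*, *Mbnl2* is known to rise and to take over part of its exons, which is why the paralogues were examined here. In these samples *Mbnl1* was lower in *Postn*-/- but still present, and transcripts were measured, not protein. RBFOX, PTB, Quaking and ESRP proteins recognise other motifs and act on partly shared exons in muscle, neurons, glia and epithelia.

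Paralogues can share reads, so the coding sequences of the family were compared first. The most alike stretches of 50 bases, the length of a read, are shown to give the number of bases by which a read can be told apart; capitals mark the bases that differ within each pair. Positions are counted from 1 at the first base of the start codon. *Mbnl1* bases 1033 to 1082 and *Mbnl2* bases 1051 to 1100 differed at 5 bases:

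Mbnl1: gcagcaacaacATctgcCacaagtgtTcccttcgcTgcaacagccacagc

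Mbnl2: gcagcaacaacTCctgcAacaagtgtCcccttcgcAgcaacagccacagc

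The closest stretch of *Mbnl1* (bases 656 to 705) to *Mbnl3* (bases 644 to 693) differed at 8 bases:

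Mbnl1: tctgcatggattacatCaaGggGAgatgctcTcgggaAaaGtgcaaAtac

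Mbnl3: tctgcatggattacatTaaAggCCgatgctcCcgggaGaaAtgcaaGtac

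No word of 50 bases occurred in the transcripts of more than 1 of the 10 genes. Words shared with genes that are no members made up 0.108% of those of *Mbnl1*, 0.388% of *Mbnl2* and 0.146% of *Mbnl3*. The share was higher for *Ptbp1* (18.3%, with 5 other genes) and *Celf2* (6.96%, with 1 other gene), so the counts of these 2 are less certain. Genes that overlap a member at its own locus were not set aside, so these shares can include the exon overlaps given below.

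*Mbnl1* and *Mbnl2* also carry a regulated exon of 54 bases, known for its role in keeping the protein in the nucleus. It lies at chr3:60614683-60614736 (GRCm38, plus strand) in *Mbnl1* and at chr14:120395712-120395765 (plus strand) in *Mbnl2*, and 46 of the 54 bases are identical. Capitals mark the differing bases:

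Mbnl1 exon: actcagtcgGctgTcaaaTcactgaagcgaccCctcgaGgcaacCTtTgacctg

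Mbnl2 exon: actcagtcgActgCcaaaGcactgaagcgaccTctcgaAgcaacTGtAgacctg

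In the GENCODE M21 annotation the exon is part of 4 of the 10 coding transcripts of *Mbnl1* that span it and of 3 of the 6 of *Mbnl2*. The gene model used for counting held the exon of *Mbnl2* and not that of *Mbnl1*. It also began 28.4 kb downstream of the first upstream exons of *Mbnl1*, and it covered 91.2% of the exon bases of the gene's annotated coding transcripts. Coverage was 96.0% for *Mbnl2*, 98.7% for *Rbfox2*, 71.8% for *Qk* and 68.3% for *Ptbp2*, and complete for the other 5. All values below are therefore gene totals over the counted exons, and the use of single exons was not analysed here.

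Total counts ran from 20587640 to 26572260 per sample, so that 3 counts corresponded to 0.113 to 0.146 CPM (a library's counts scaled to a common total). *wt* replicate 1 stood apart from the rest: on the first principal component, which held 31.9% of the variance, it lay at 47.7 and the other 5 samples between −17.4 and −0.0175. *Postn* itself was at 4.66, 4.27 and 5.67 CPM in *Postn*-/-, against 10.1, 10.3 and 6.90 in *wt* (log2 fold change −0.91, SE 0.22, unadjusted p = 0.00362 and adjusted p = 0.717 from edgeR), with reads left in every *Postn*-/- sample. Of 10 chondrocyte markers all were tested, and their summed level was 35030 to 46720 CPM in *Postn*-/- and 29770 to 42810 in *wt*. Summed markers of fibroblasts (2522 to 5192 against 3401 to 6095 CPM), blood cells, endothelium, epithelium and neurons overlapped between genotypes. Those of muscle did not, at 16.9 to 17.8 CPM in *Postn*-/- and 19.2 to 28.1 in *wt*.

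*Mbnl1* (ENSMUSG00000027763, chr3:60501252-60629748, plus strand) was the member that differed. The 3 *Postn*-/- libraries held 8576, 9418 and 8590 of its reads, and the 3 *wt* libraries 25075, 15347 and 17397. After TMM normalization, which scales each library for its size and composition, these were 345, 383 and 409 CPM against 964, 694 and 834 CPM. All *Postn*-/- values were lower than all *wt* values, of which replicate 2 was the lowest. The mean level was 379 CPM (SD 32.6) for *Postn*-/- samples, against 831 CPM (SD 135) for *wt* samples, n = 3 for each. The ratio of *Postn*-/- to *wt* was 0.456, a log2 fold change of −1.13 with an SE of 0.15. Without *wt* replicate 1 it was −1.01. The 6 muscle markers, whose sum was also lower in *Postn*-/-, held 1 called gene among 3 tested, where 6.30% of all tested genes were called. It was *Acta1* (2.77 to 15.9 CPM, −1.31, unadjusted p = 0.0152). The other tested ones were *Tnnt3* at −0.17 (unadjusted p = 0.378) and *Des* at 0.55 (unadjusted p = 0.217). The defining muscle genes *Myog* (at most 0.0407 CPM) and *Ckm* (at most 0.143 CPM) were near 0 in every sample, and the embryonic myosin gene *Myh3* was at 0.538 to 1.38 CPM. In bulk libraries such as these, fewer cells of a type and less RNA per cell cannot be told apart.

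*Mbnl2* (chr14:120275669-120431697, plus strand), the closest paralogue of *Mbnl1* in function, was at 585, 480 and 512 CPM in *Postn*-/-, against 480, 527 and 573 CPM in *wt*. The genotypes overlapped, and the means were 526 ± 53.9 and 527 ± 47.0 CPM. Its log2 fold change was −0.0029 (SE 0.13, unadjusted p = 0.982 and adjusted p = 0.997 from edgeR). The 95% interval of the ratio ran from 0.815 to 1.22, so a rise of *Mbnl2* transcripts by more than 1.22-fold lay outside it.

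*Mbnl3* (chrX:51117269-51206532, minus strand), the family member known from placenta and from precursor cells that have not yet differentiated, was at 9.36, 22.6 and 12.5 CPM in *Postn*-/-, against 13.3, 12.4 and 12.5 CPM in *wt*. *Postn*-/- replicate 2 was the highest of the 6 and replicate 1 the lowest, and the rest lay between 12.4 and 13.3 CPM. The log2 fold change was 0.22 (SE 0.30, unadjusted p = 0.483 and adjusted p = 0.856 from edgeR), and without *Postn*-/- replicate 2 it turned to −0.22. *Mbnl2* and *Mbnl3* summed per kilobase of exon came to 130, 108 and 114 in *Postn*-/- and 107, 117 and 127 in *wt*. The log2 difference of the sums was −0.00050, with p = 1 in an exact two-sided permutation test, where 0.1 is the smallest p that 3 against 3 samples allow.

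Levels of different genes can be compared only per length. Per kilobase of exon, *Mbnl1* stood at 61.8, 68.7 and 73.4 TMM-normalized CPM in *Postn*-/-, against 173, 124 and 149 in *wt*. *Mbnl2* stood at 129, 106 and 112 in *Postn*-/-, against 105, 116 and 126 in *wt*. In *wt* the 2 genes overlapped and *Mbnl1* had the higher mean, while in *Postn*-/- every *Mbnl1* value lay below every *Mbnl2* value. The *Mbnl1* to *Mbnl2* ratio was 0.480, 0.651 and 0.653 in *Postn*-/- and 1.64, 1.07 and 1.19 in *wt*. The 3 family members together came to 185 ± 7.52 in *Postn*-/- and 266 ± 21.1 in *wt*. *Mbnl1* made up 36.8 ± 3.90% of this sum in *Postn*-/- and 55.8 ± 5.38% in *wt*, and *Mbnl3* never more than 1.46%. These shares and sums hold the values for which *Mbnl1* was picked and are a description.

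**Figure D1:**
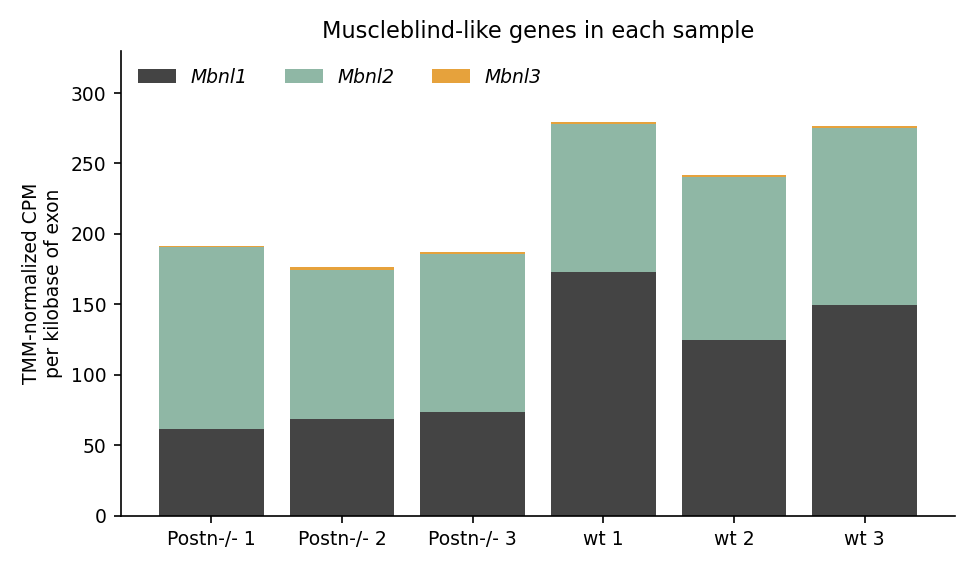
Stacked bars give the level of *Mbnl1*, *Mbnl2* and *Mbnl3* in each of the 6 samples, as TMM-normalized CPM per kilobase of exon. The dark *Mbnl1* part is shorter in the 3 *Postn*-/- samples (61.8 to 73.4) than in the 3 *wt* samples (124 to 173), while the *Mbnl2* parts overlap, at 106 to 129 in *Postn*-/- and 105 to 126 in *wt*.

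The CELF proteins, which oppose muscleblind-like proteins on many exons, were both at slightly higher mean levels in *Postn*-/-, within the spread of the samples. *Celf1* (chr2:90940382-91019497, plus strand) was at 49.7, 64.3 and 52.5 CPM in *Postn*-/-, against 41.3, 54.7 and 53.7 in *wt*, so the log2 fold change was 0.15 (95% interval −0.20 to 0.50, unadjusted p = 0.339). *Celf2* (chr2:6539694-7509563, minus strand), best known from brain, heart and T cells, was at 4.34, 5.41 and 6.34 CPM in *Postn*-/-, against 4.58, 3.39 and 4.84 in *wt*. Its log2 fold change was 0.33 (95% interval −0.21 to 0.87, unadjusted p = 0.20). For both genes the genotypes overlapped. *Celf2* shares 1961 exon bases with *Gm26565*. Reads there would be ambiguous and left out of both counts if counting ignored the strand or both genes lie on the same strand. The same holds for 773 exon bases of *Ptbp1*, 127 of *Esrp1* and 86 of *Mbnl2* that lie in other genes.

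*Rbfox2* (chr15:77078990-77307053, minus strand), the widely expressed RBFOX protein that binds GCAUG elements, was at 40.5, 45.6 and 43.0 CPM in *Postn*-/-, against 44.0, 39.1 and 37.3 in *wt*. The log2 fold change was 0.10 (95% interval −0.15 to 0.35, unadjusted p = 0.390). *Qk* (chr17:10206471-10319361, minus strand) encodes Quaking, which regulates exons and circular RNA formation and is known for its role in myelin. It was at 128, 127 and 130 CPM in *Postn*-/-, against 123, 156 and 141 in *wt*, so the log2 fold change was −0.13 (95% interval −0.39 to 0.13, unadjusted p = 0.285). Its *wt* values surrounded the narrow *Postn*-/- range, with coefficients of variation of 11.9% and 1.11%.

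The PTB proteins repress exons through pyrimidine-rich tracts, and *Ptbp1* is known to repress *Ptbp2* outside neurons. *Ptbp1* (chr10:79854427-79864771, plus strand) was at 210, 171 and 175 CPM in *Postn*-/-, against 202, 197 and 200 in *wt*, so the log2 fold change was −0.11 (95% interval −0.37 to 0.15, unadjusted p = 0.355). *Ptbp2* (chr3:119718742-119783388, minus strand) was at 12.1, 12.2 and 11.3 CPM in *Postn*-/-, against 11.8, 11.2 and 12.5 in *wt*. Its log2 fold change was 0.0048 (95% interval −0.30 to 0.31, unadjusted p = 0.972). Per kilobase, *Ptbp1* was 9.93 to 12.3 times as high as *Ptbp2* in *Postn*-/- and 11.3 to 12.5 times in *wt*, and these ranges overlapped.

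*Esrp1* (chr4:11331933-11386783, minus strand), the epithelial regulator of *Fgfr2* and *Cd44* exons, was among the lowest of the members. It had 28, 46 and 35 reads in *Postn*-/- and 28, 22 and 34 in *wt*, and it passed 1 CPM in 5 of the 6 samples. The log2 fold change was 0.34 (95% interval −0.40 to 1.07, unadjusted p = 0.323), an interval that leaves a difference of over 2-fold within reach at this depth. Of the 6 epithelial markers, *Cdh1* (0.769 to 1.86 CPM) and *Grhl2* (0.615 to 1.46 CPM) had enough reads to test, with log2 fold changes of 0.59 (unadjusted p = 0.110) and 0.37 (unadjusted p = 0.325). *Epcam* (0.308 to 0.572 CPM), *Krt8*, *Krt18* and *Cldn4* (0 to 0.0479 CPM) were too low to test. The part of these markers in the level of *Esrp1* was not tested.

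Of the 9 members other than *Mbnl1*, 0 reached an unadjusted p of 0.05 or less and 0 an adjusted one in edgeR's quasi-likelihood test, and none did with voomWithQualityWeights or DESeq2 either. Over all 14533 genes the shares were 6.30% and 0.0138%. The genotypes overlapped for all 9, while they stood apart for 13.6% of all tested genes. The 9 log2 fold changes ran from −0.13 to 0.34 with a median of 0.10, 6 above 0 and 3 below, beside a median of 0.0042 for all tested genes. The median of the 9 was 0.03 without *Postn*-/- replicate 2 and 0.03 without *wt* replicate 1. The lower *Mbnl1* was thus not accompanied by a detectable difference in any other member at this depth and number of samples.

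**Figure D2:**
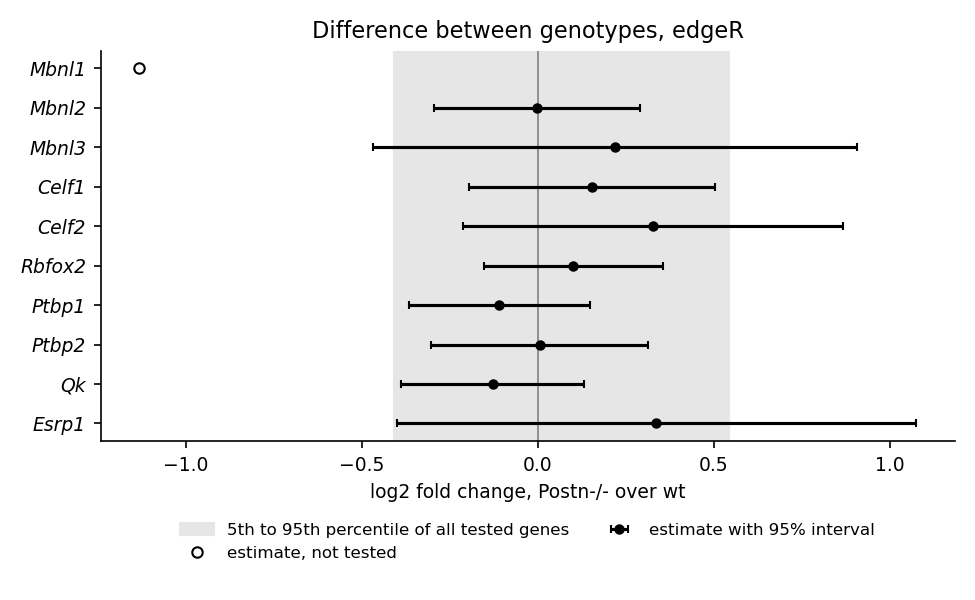
Log2 fold changes of the 10 members, *Postn*-/- over *wt*, with 95% intervals from edgeR for the 9 tested; the grey band spans the 5th to the 95th percentile of all tested genes (−0.41 to 0.54). The intervals of the 9 all include 0; the open point of *Mbnl1* (−1.13), picked for its lower counts, is shown without an interval as a description.

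The order of the levels per kilobase was the same in both genotypes apart from the change of place between *Mbnl1* and *Mbnl2*. Averaged over the 6 samples, *Mbnl2* (116) and *Mbnl1* (108) lay above 96.4% and 96.1% of all tested genes. *Ptbp1* followed at 40.6 and *Qk* at 13.6, then *Celf1* at 6.24 and *Rbfox2* at 5.65, whose ranges overlapped in each genotype. *Ptbp2* stood at 3.53, near the middle of all tested genes, and *Mbnl3* at 1.58. *Esrp1* at 0.221 and *Celf2* at 0.186 overlapped at the bottom, at the 3.75 and 2.34 percentiles. The counted exons came to 25.88 kb for *Celf2* and 8.743 kb for *Mbnl3*. Their annotated coding transcripts held 10065 and 5211 exon bases, so the places of *Celf2* and *Mbnl3* in this order depend on the length used. *Mbnl2* and *Mbnl1* thus had the highest transcript levels per kilobase among the 10.

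**Figure D3:**
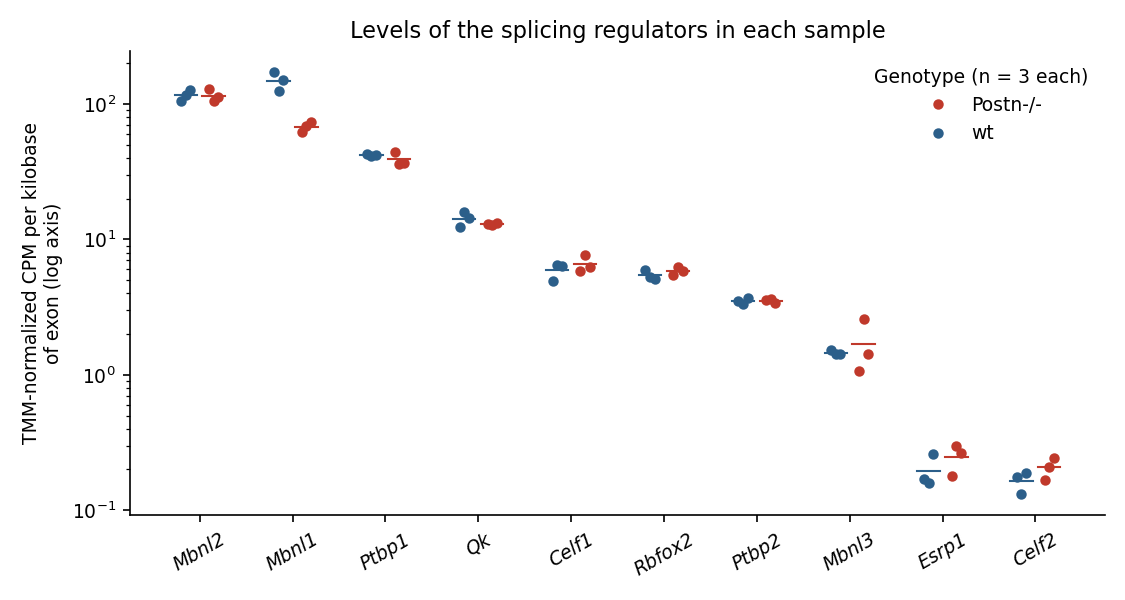
Points give each sample's level of the 10 members as TMM-normalized CPM per kilobase of exon on a log axis, with short lines at the genotype means (n = 3 each). Levels span from 0.131 (*Celf2*) to 173 (*Mbnl1*), and only the *Mbnl1* points of the genotypes are separate.

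A wider list of 66 other splicing regulators, chosen for their known function, held 62 tested genes; *Rbfox1*, *Celf6*, *Esrp2* and *Rbm24* had too few reads. By edgeR's unadjusted p, 3 of the 62 (4.84%) reached 0.05 or less, beside 6.30% of all tested genes, and 0 an adjusted one. This order was not stable: the list's share was above that of all tested genes with voomWithQualityWeights (14.5% beside 9.20%), with surrogate variables (19.4% beside 13.7%) and with DESeq2 (8.06% beside 6.01%). *Tardbp*, which encodes TDP-43 and represses cryptic exons, was at 106, 115 and 95.8 CPM in *Postn*-/-, against 134, 130 and 123 in *wt* (log2 fold change −0.29, SE 0.10, unadjusted p = 0.0253). *Zfp326*, whose protein couples splicing to transcript elongation, was at 22.3, 22.7 and 18.4 CPM against 28.8, 24.4 and 25.9 (−0.32, SE 0.13, unadjusted p = 0.0428). *Hnrnpll*, a regulator of *Ptprc* exons in lymphocytes, went the other way, with 23.4, 22.0 and 22.1 CPM against 13.5, 19.8 and 17.4 (0.41, SE 0.16, unadjusted p = 0.0320). The adjusted p was 0.717 for each. Each call was lost on leaving out some single samples. For *Tardbp* these were *Postn*-/- replicates 1 and 3 and *wt* replicates 1 and 2 (unadjusted p 0.0539 to 0.101). For *Zfp326* they were replicates 1 and 3 of each genotype (0.0595 to 0.150), and its call was also lost without a filter on low counts (0.0507). For *Hnrnpll* they were all *Postn*-/- replicates and *wt* replicates 1 and 3 (0.0558 to 0.0824).

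Most of the differences in the wider list were small and below 0. The median log2 fold change was −0.13, with 45 of 62 genes below 0, where 49.2% of all tested genes were below 0. It was −0.06 without *Postn*-/- replicate 3 (38 below 0) and −0.07 without *wt* replicate 2 (37 below 0). Among the 23 hnRNP proteins, abundant binders of nascent transcripts, 19 were below 0 with a median of −0.13 (15 to 19 over all alternatives), and in 8 all *Postn*-/- values were lower than all *wt* values. In 1, *Hnrnpll*, all were higher, and together these made 39.1% of the list beside 13.6% of all tested genes. The 8 were *Hnrnpa1*, *Hnrnpa2b1*, *Hnrnpc*, *Hnrnpf*, *Hnrnph1*, *Hnrnph2*, *Hnrnpk* and *Hnrnpul1*, named after their values were seen. *Hnrnpa2b1* was at 951, 975 and 839 CPM in *Postn*-/-, against 1146, 1175 and 1041 in *wt*, so the log2 fold change was −0.28 with an unadjusted p of 0.0518. None of the 8 passed an unadjusted p of 0.05 in the edgeR comparison of all samples with TMM scaling. Other settings called 0 to 2 of the 23 lower. It was 2 under DESeq2 size factors in edgeR and under voomWithQualityWeights without and with surrogate variables. Of all 14533 tested genes, 389, 550 and 917 were called lower in these settings, in that order. It was 1 each under DESeq2, without a filter, under the robust fit, under the replicate block and without *Postn*-/- replicate 1. Over all tested genes the lower calls were there 393 of 14533, 757 of 34295, 351 of 14533, 466 of 14533 and 291 of 14428. In both directions together, the share of the list called was 4.35% by edgeR, beside 6.30% of all tested genes, and 17.4% with voomWithQualityWeights, beside 9.20%. Without *Postn*-/- replicate 3 the median of the 23 was −0.07. Whether the list differs from other genes was not tested.

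Of 21 other broadly expressed regulators 17 were likewise below 0, with a median of −0.135. Without *wt* replicate 3 these were 12 of 21 and −0.06, the weakest values over the alternatives. The genotypes stood apart in 9.52% of this list, beside 13.6% of all tested genes, and *Tardbp* and *Zfp326* were the 2 called by edgeR (9.52% beside 6.30%). Called were 3 with voomWithQualityWeights (14.3% beside 9.20%), 6 with surrogate variables (28.6% beside 13.7%) and 3 with DESeq2 (14.3% beside 6.01%). Without *Postn*-/- replicate 3 there were 0, beside 2.98%. The 14 tested tissue-restricted regulators, such as *Nova1* and *Srrm4*, had no common direction, 7 above and 7 below 0, with 0 called in the edgeR comparison of all samples, and the genotypes stood apart in 14.3% beside 13.6% of all tested genes. Leaving out single samples moved the number below 0 between 5 and 9, and 2 were called without *Postn*-/- replicate 1 (14.3% beside 6.02% of all tested genes) and 1 without *wt* replicate 2 (7.14% beside 8.71%). With voomWithQualityWeights 4 were above and 10 below 0, with a median of −0.09, and 2 were called (14.3% beside 9.20%). With surrogate variables 2 were called (14.3% beside 13.7%), with 7 above and 7 below 0. The 4 tested paralogues of the RBFOX, PTB and CELF families, *Ptbp3* among them, had a median of −0.03 and 0 calls, beside 6.30% of all tested genes. Without *Postn*-/- replicate 2 there was 1 call (25.0% beside 7.73%). That median had no stable sign, from −0.21 without *wt* replicate 1 to 0.12 without *wt* replicate 3.

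**Figure D4:**
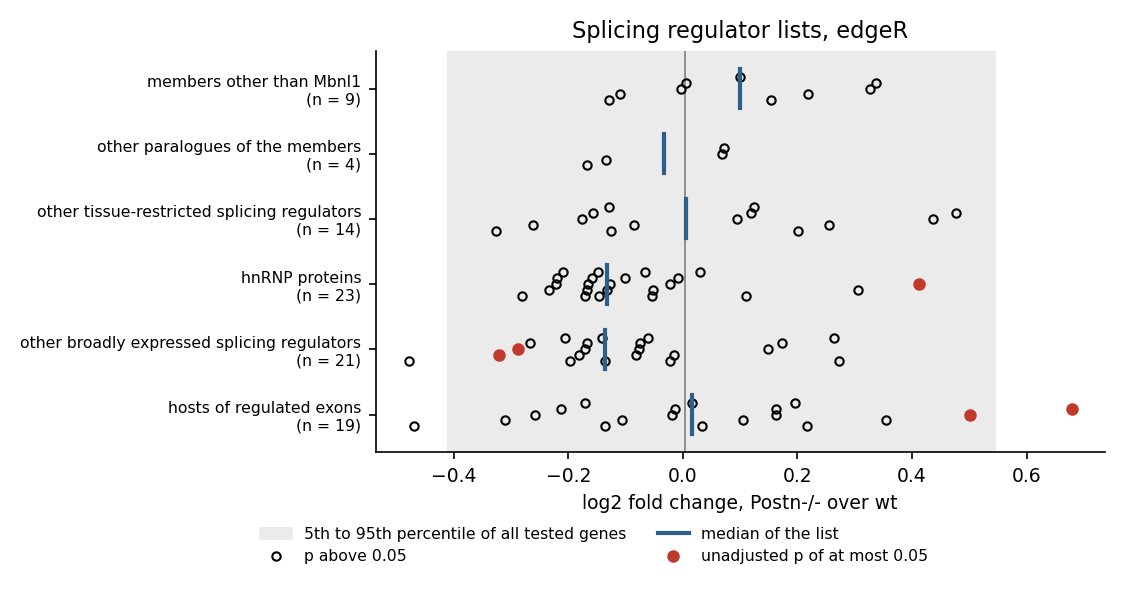
Each point is the log2 fold change, *Postn*-/- over *wt*, of a tested gene of a list, filled where edgeR's unadjusted p was 0.05 or less; bars mark list medians and the grey band the 5th to 95th percentile of all tested genes. The hnRNP and broadly expressed lists have medians of −0.132 and −0.135, and the median of the 9 members other than *Mbnl1* is 0.10.

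Genes that host exons known to be regulated by these proteins were measured as totals, which do not show exon use. Of 20 such genes 19 were tested, and 2 (10.5%) reached an unadjusted p of 0.05 or less by edgeR, beside 6.30% of all tested genes. The median log2 fold change was 0.02, with 10 genes above 0 and 9 below. Its sign was not stable, at 0.16 without *wt* replicate 2 (12 above 0, 7 below) and −0.06 without *Postn*-/- replicate 2 (8 above, 11 below). *Col2a1*, the cartilage collagen whose second exon is alternatively spliced as chondrocytes mature, was at 15767, 13696 and 18081 CPM in *Postn*-/-, against 8271, 11867 and 9567 in *wt* (log2 fold change 0.68, SE 0.21, unadjusted p = 0.0125). *Bin1*, which shapes membrane tubules and has a muscle exon under *Mbnl1* control, was at 19.5, 18.3 and 16.4 CPM against 9.46, 15.7 and 13.3 (0.50, SE 0.20, unadjusted p = 0.0350). In both genes all *Postn*-/- values were higher than all *wt* values, and the adjusted p was 0.717. The call of *Col2a1* was lost without *wt* replicate 3 (unadjusted p = 0.0522), and that of *Bin1* without any of 4 samples, *wt* replicates 1 and 3 and *Postn*-/- replicates 1 and 2 (unadjusted p 0.0684 to 0.0968). *Col2a1* was also the 1 of the 10 chondrocyte markers that was called.

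*Mbnl1* lies on chromosome 3, as does the targeted gene *Postn*, and the 2 starts are 6.14 Mb apart. Of the 15 genes in the files that start within 1 Mb of *Mbnl1*, 4 were tested and 1 reached an unadjusted p of 0.05 or less. *P2ry1*, a purinergic receptor for ADP that starts 0.50 Mb downstream, was at 1.13, 1.18 and 0.620 CPM in *Postn*-/-, against 2.08, 2.67 and 2.54 in *wt*. Its log2 fold change was −1.30 (SE 0.30, unadjusted p = 0.00274 and adjusted p = 0.717 from edgeR), and the genotypes stood apart; its lower level had been seen before this comparison was drawn up. The succinate receptor gene *Sucnr1*, 0.42 Mb upstream, had a log2 fold change of −0.25 (unadjusted p = 0.550). The small GTPase gene *Rap2b* had 0.25 (unadjusted p = 0.260) and the pseudogene *Gm8349* 0.49 (unadjusted p = 0.127), and in all 3 the genotypes overlapped. Near *Mbnl1* 1 of 4 tested genes, and around the 9 other members 9 of 172, reached an unadjusted p of 0.05 or less, beside 6.30% of all tested genes. *Ptbp2*, also on chromosome 3 and 65.4 Mb from *Postn*, showed no detectable difference. Effects of the lost periostin and of sequence linked to the targeted allele cannot be told apart in this design.

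**Figure D5:**
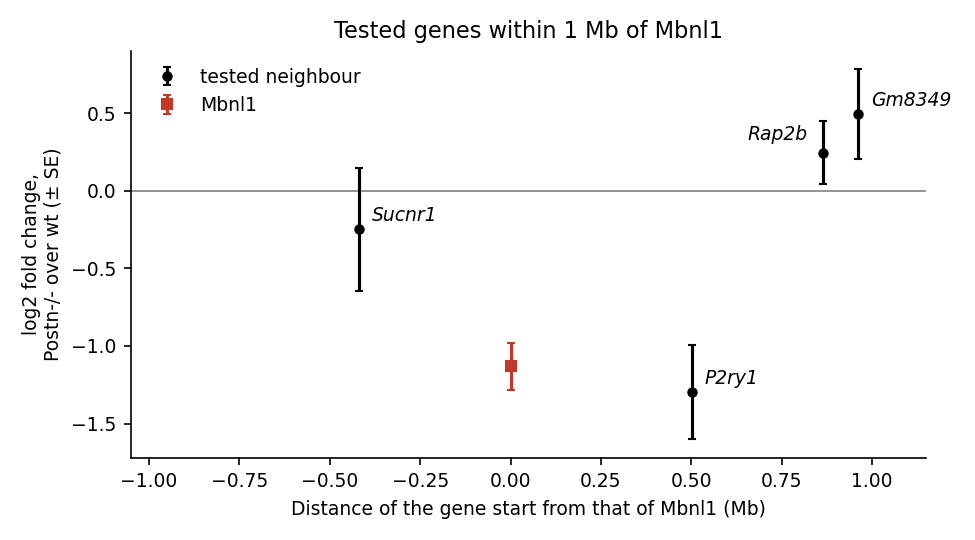
Log2 fold changes, *Postn*-/- over *wt*, of *Mbnl1* and of the 4 tested genes within 1 Mb, with SE, against the distance of their starts in Mb. *P2ry1* (−1.30) lies at the level of *Mbnl1* (−1.13), and the other 3 lie between −0.25 and 0.49.

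The genes whose pattern over the 6 samples was most like that of *Mbnl1* all stayed at or below 4.27 CPM, not scaled by length; this is a description, since it starts from the values for which *Mbnl1* was picked. Likeness was the root mean square distance between gene-centred log2 levels, and *Mbnl1* itself spanned 1.48 on this scale. The 5 nearest were *9430065F17Rik* (0.158), *Gm14322* (0.220), *Snhg9* (0.224), *Gm16144* (0.230) and *Ccsap* (0.251). The nearest, the antisense transcript *9430065F17Rik*, was at 0.563, 0.773 and 0.763 CPM in *Postn*-/-, against 2.12, 1.27 and 1.29 in *wt*, with its highest value in *wt* replicate 1 as for *Mbnl1*. *Gm16144* was at 2.01 to 4.27 CPM, and none of the 5 lies on chromosome 3. *9430065F17Rik*, *Gm14322* and *Ccsap* were below 1 CPM in every *Postn*-/- sample and so passed the filter only through the *wt* samples. The same held for *Snhg9*, at 0.683, 0.773 and 1.14 CPM in *Postn*-/-, where the filter asked for 2 samples above 1 CPM.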

How the data were processed

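RNA-seq libraries of 3 *Postn*-/- and 3 *wt* samples were analysed. Per the labels and the methods, the authors aligned single-end reads of 50 bases with STAR 2.0.4b and counted unambiguous reads per gene with featureCounts 1.4.5; whether strand was used is not given in the sources used here. The deposited counts are raw counts per gene. The deposited CPM values are the counts scaled to each library's total, and the deposited RPKM values are the same per kilobase of exon; both were only checked. The submitters' notes name mm9, but 99.85% of the matched genes overlapped their GRCm38 positions, so GRCm38 and GENCODE M21 names were used (40340 of 41388 identifiers, 97.5%). Sequences were read from GENCODE M21.

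A gene was tested if 2 or more libraries exceeded 1 CPM; 355 rRNA genes were removed. The genotypes were compared with edgeR 4.0.16 (R 4.3.3), TMM normalization and the quasi-likelihood test with Benjamini-Hochberg adjustment over all 14533 genes, without covariates; the common dispersion gave a biological coefficient of variation of 0.208. The fit was tested on simulated data. Chi-square per degree of freedom between libraries was 26.5 or more, so none was a copy of another. This does not show that each came from a different mouse. Levels per length are TMM-normalized CPM per kilobase of counted exon; 3 counts is taken as the floor, which covers counting error only. Likeness of pattern used log2(CPM + 0.1).

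The members, lists and tests were chosen with earlier results of these data known. Genes named by rule were the members, *Postn*, genes of the lists at an unadjusted p of at most 0.05, the tested genes within 1 Mb of *Mbnl1* and the 5 most like it. Others were named outside this rule. These were cell type markers, hnRNP genes whose genotypes stood apart, examples from the lists and listed genes with too few reads. Alternatives were voomWithQualityWeights (limma 3.58.1) without and with 2 surrogate variables (sva 3.50.0), the kind of model the study's methods describe, the Wald test of DESeq2 1.42.0, edgeR with DESeq2 size factors or upper quartile scaling, no filter or a stricter one, robust estimation, a block for the replicate number, and omission of single samples.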

Additional observations from a re-analysis of the deposited data

How the results depend on the processing

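The log2 fold change of *Mbnl1* ran from −1.16 to −1.08 over the 9 other models, scalings and filters and from −1.25 to −1.01 when single samples were left out. The other members had 0 calls in all of these; 9 were tested in each but 8 when all 6 samples had to pass 1 CPM, which left out *Esrp1*. Small differences changed sign: *Mbnl2* was at 0.012 with upper quartile normalization, 0.0095 with genes above 1 CPM in all 6 samples and −0.087 to 0.061 with single samples left out. *Ptbp2* was at −0.035 with voomWithQualityWeights, −0.0055 with DESeq2, −0.0060 with its size factors in edgeR, −0.019 without a filter and −0.032 to 0.043 with samples left out. *Mbnl3* ran from −0.22 to 0.46 with samples left out. The *Mbnl2* and *Mbnl3* sum differed by 0.017 with upper quartile normalization, 0.0026 when not scaled by length and −0.075 to 0.060 with samples left out. The cause was not tested for any of these.

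In the wider list, 9 genes were called with voomWithQualityWeights (14.5%, beside 9.20% of all tested genes) and 12 with surrogate variables added (19.4% beside 13.7%). DESeq2 gave 5 (8.06% beside 6.01%), and its size factors in edgeR gave 5 (8.06% beside 6.37%). With samples left out, 0 to 6 were called (0 to 9.68%, beside 2.98 to 8.71% of all tested genes). Hosts of regulated exons gave 4 calls with surrogate variables (21.1% beside 13.7%) and 0 to 3 with samples left out (0 to 15.8%, beside 2.98 to 8.71% of all tested genes). Near *Mbnl1*, 2 of 15 genes were called without a filter, beside 5.24% of all tested genes. When all 6 samples had to pass 1 CPM, 0 of 2 were called, beside 6.45%, and *P2ry1* was not tested. Over all genes, 1997 had an unadjusted p of at most 0.05 with surrogate variables, 1797 without a filter and 425 to 1257 with samples left out. Adjusted calls numbered 1 with voomWithQualityWeights, 4 with surrogate variables, 10 with DESeq2, 1 with upper quartile normalization, 9 without a filter, 0 with the stricter filter and 1 to 2 with samples left out.

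With the replicate number as a block, 1188 genes had an unadjusted p of at most 0.05 and 1 an adjusted one. Same-numbered samples correlated at 0.0824, 0.155 and 0.143 and other pairs at −0.13 to 0.0143, so every sample correlated best with its own number, a hint from the data and not the design; the labels give no pairing. Counts under 50 reads limit *Esrp1*, and 3 samples per genotype limit all intervals.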
